A study of Mus with 4 samples.

Results

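The genes described here are 10 genes used as markers of cancer-associated fibroblasts and pericytes (Pdgfra, Pdgfrb, Postn, Fap, Acta2, Thy1, Dpt, Pdpn, Fn1 and Sparc), picked by name and matched to the arrays by gene symbol. Of these 10, 9 have a probe set named in the platform annotation, 1 probe set each, out of 19505 named genes in all. Pdgfra has no probe set named there and is not analysed here. All 9 passed the filter on level that 10021 genes passed.

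The study hybridised RNA of subcutaneous tumors to 4 Affymetrix arrays, with 4 groups and 1 array per group. The groups are called shNrf3-HFD, shCtrl-HFD, shNrf3-NC and shCtrl-NC. Renca, the tumor cell line injected, comes from a renal adenocarcinoma of the mouse and stably expressed either shNrf3, a hairpin RNA that targets Nrf3, or the control hairpin shCtrl. Hosts were BALB/cCrSlc males, bought at 4 to 6 weeks of age and kept for 17 weeks on high-fat diet (HFD) or normal chow (NC). Their flank tumors were taken 2 weeks after injection. The hairpins were carried by the injected cells, so that fibroblasts of the host had neither. Nothing in the labels tells if RNA was pooled over tumors, or if each cell line was a single clone. With 1 array per group no difference between 2 arrays has a replicate check or a test.

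Fibroblasts of a tumor make and remodel its collagen-rich matrix, and pericytes wrap its small vessels. Both respond to platelet-derived growth factor (PDGF), whose chains bind the receptor tyrosine kinases encoded by Pdgfra and Pdgfrb, while transforming growth factor beta drives fibroblasts towards a contractile, matrix-producing state marked by Acta2. None of the 10 genes belongs to fibroblasts alone: T cells carry Thy1, lymphatic endothelium carries Pdpn, smooth muscle carries Acta2, and many tumor cells, endothelial cells and macrophages make Fn1 or Sparc.

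Levels are log2 values. The negative control rows had medians of 5.35 to 5.39 and 95th percentiles of 8.97 to 9.35 on the 4 arrays, and the table has a shared highest value of 19.93. Nfe2l3, the gene of the targeted factor Nrf3, read 6.05 on the array labelled shNrf3-HFD, against 5.77 for the shCtrl-HFD label, and 5.56 for the shNrf3-NC label, against 6.22 for shCtrl-NC. The HFD pair goes against the labels and all 4 readings lie below the 95th percentile of the negative controls, so the groups are named by the labels of their arrays and every direction below rests on those labels. The median difference over all genes past the filter was -0.14 for shNrf3 minus shCtrl in HFD, 0.14 in NC, -0.03 for HFD minus NC with shNrf3 and 0.26 with shCtrl. Cyclic loess scaling brought the size of each to 0.0104 or less.

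Periostin and the PDGF receptor beta gene were lower with shNrf3 in both diets, and 3 further genes of the list were lower in HFD. Whether the construct differences differ between diets could not be tested with 1 array per group. On the array labelled shNrf3-HFD, 5 of the 9 genes (Dpt, Pdgfrb, Thy1, Postn and Sparc) read 2-fold or more lower than on that labelled shCtrl-HFD and 0 read 2-fold or more higher. Of all genes past the filter 7.13% were that much lower and 2.55% that much higher in this comparison. In NC 2 of the 9 (Postn and Pdgfrb) were 2-fold or more lower on the array labelled shNrf3-NC and 0 higher, where 4.52% of all genes were lower and 13.3% higher. The median difference of the 9 genes was -1.28 in HFD and -0.41 in NC. After centring each array on the median of its genes past the filter, 55.7% of all genes past 2-fold were higher in HFD (26.4% as deposited, 41.0% after loess). In NC 53.9% were (74.7% as deposited, 62.9% after loess), so the background of each direction depends on the scaling. The 2 genes lower in both diets compare with 0.828% of all genes. No gene of the 9 was 2-fold higher in both diets, as 0.838% of all genes were.

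**Figure D1:**
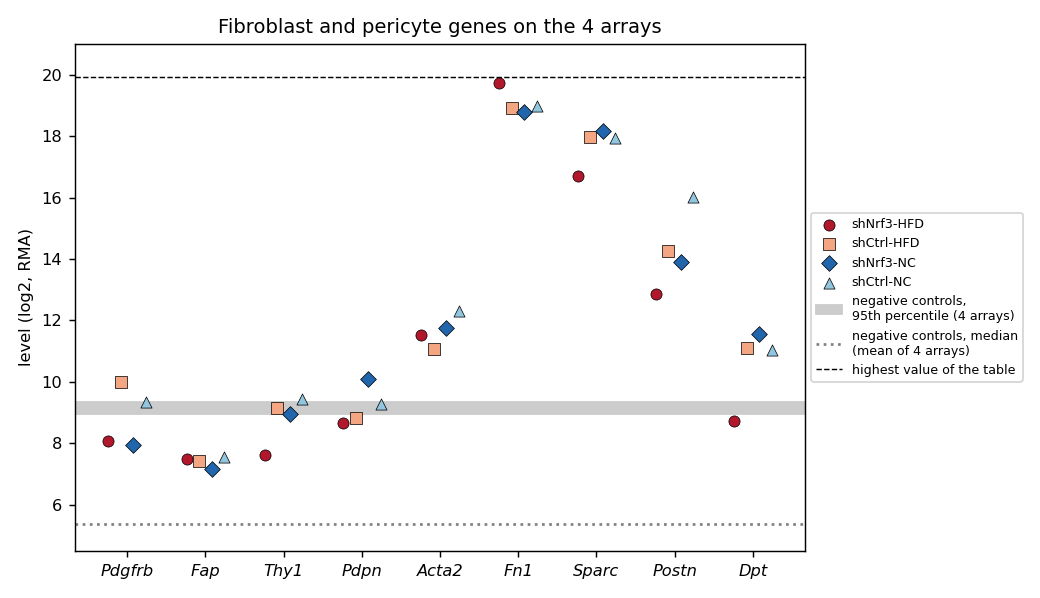
Level (log2, y axis) of each of the 9 genes (x axis) on the 4 arrays, 1 point per array. The grey band spans the 95th percentiles of the negative controls (8.97 to 9.35), the dotted line is the mean of their medians and the dashed line the highest value of the table (19.93). Fap lies below the band on all 4 arrays, and Fn1 on the array labelled shNrf3-HFD lies just under the dashed line.

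Pdgfrb, the receptor for PDGF-B and PDGF-D that pericytes and many fibroblasts carry, read 8.08 on the array labelled shNrf3-HFD against 9.999 on the shCtrl-HFD array, and 7.95 on the shNrf3-NC array against 9.35 on the shCtrl-NC array. Both shNrf3 arrays thus lay below both shCtrl arrays, and the 2 shNrf3 readings lay close together. The differences were -1.92 in HFD (3.78-fold lower) and -1.40 in NC (2.64-fold lower). Between diets Pdgfrb differed little, by 0.13 (HFD minus NC) with shNrf3 and 0.65 with shCtrl. Only the shCtrl-HFD reading exceeded the 95th percentile of the negative controls of its array, so that the lower readings have less margin over background. In bulk RNA, fewer cells of a type and less RNA per cell cannot be told apart, here and for every gene below.

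The genes of the PDGF chains gave 1 gene that followed the same pattern. Pdgfb, which encodes the chain that endothelial cells release to recruit pericytes, read 4.97 on the array labelled shNrf3-HFD against 7.86 on the shCtrl-HFD array, and 6.13 on the shNrf3-NC array against 7.59 on the shCtrl-NC array. It too was 2-fold or more lower with shNrf3 in both diets. The NC difference was -1.46. The HFD difference was -2.47 or lower, since the shNrf3-HFD reading lies below the median of its negative controls (5.39) and was set to that median. All 4 readings lie below the 95th percentile of the negative controls.

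Counts for this and every other list were made with each reading below the control median of its array set to that median, over all measured members. Counted the same way over all 19505 named genes, the shares for shNrf3 minus shCtrl were 3.69% lower and 1.24% higher in HFD. In NC they were 2.48% lower and 6.9% higher. For HFD minus NC they were 2.67% lower and 0.984% higher with shNrf3, and 2.13% lower and 7.59% higher with shCtrl. Genes that failed the filter are among these 19505. Over the 10021 past it, not floored, the shares were larger: 7.13% lower and 2.55% higher in HFD, and 4.52% and 13.3% in NC. By diet they were 5.03% and 1.87% with shNrf3, and 3.9% and 14.6% with shCtrl. Lists whose members mostly passed the filter compare better with these larger shares. Of 8 PDGF and fibroblast growth factor ligand genes, of which 5 passed the filter on level, Pdgfb was the 1 gene 2-fold or more lower with shNrf3 in HFD and in NC, and 0 were higher. By diet 0 were lower with shNrf3 and 1 with shCtrl, Fgf7 (-1.13), a fibroblast-made growth factor for epithelium, against 0 higher.

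Among the surface proteins, Thy1 encodes CD90, a glycoprotein of fibroblasts, T cells and neurons. It read 7.61 on the array labelled shNrf3-HFD against 9.14 on the shCtrl-HFD array, and 8.95 on the shNrf3-NC array against 9.46 on the shCtrl-NC array. The shNrf3-HFD array stood apart below the other 3, which lay between 8.95 and 9.46. Only the shCtrl-HFD and shCtrl-NC readings exceeded the 95th percentile of the negative controls of their arrays. Thy1 was 2.88-fold lower in the HFD pair (difference -1.53) and 2.53-fold lower for HFD minus NC with shNrf3 (-1.34), while the other 2 comparisons gave -0.51 and -0.32.

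Pdpn encodes podoplanin, a membrane glycoprotein that binds the platelet receptor CLEC-2. It read 8.65 on the array labelled shNrf3-HFD, 8.82 on that labelled shCtrl-HFD, 10.10 on that labelled shNrf3-NC and 9.29 on that labelled shCtrl-NC. Its highest reading was thus on the shNrf3-NC array, the only one to exceed the 95th percentile of the negative controls of its array. HFD minus NC was -1.45 with shNrf3 (2.74-fold lower) and -0.47 with shCtrl. For the construct it differed by 0.81 in NC and by -0.17 in HFD, the last of which was 0.04 after centring.

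Fap encodes fibroblast activation protein, a membrane protease that cleaves after proline. It read 7.50, 7.41, 7.15 and 7.56 on the arrays labelled shNrf3-HFD, shCtrl-HFD, shNrf3-NC and shCtrl-NC. It had the narrowest range of the 9 genes (0.41), and all 4 readings lay below the 95th percentile of the negative controls. Its 4 differences ran from -0.41 to 0.35, all within 1.5-fold.

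Acta2, the smooth muscle alpha-actin gene of myofibroblasts, pericytes and smooth muscle, was highest in the shCtrl-NC tumors and lowest in the shCtrl-HFD tumors. It read 11.52 on the array labelled shNrf3-HFD against 11.07 on the shCtrl-HFD array, and 11.74 on the shNrf3-NC array against 12.30 on the shCtrl-NC array. With shCtrl it was 2.35-fold lower in HFD than in NC (difference -1.23), and with shNrf3 it differed by -0.22. The construct differences were 0.45 in HFD and -0.55 in NC, of opposite sign and each under 1.5-fold. Actin genes are close in sequence, and the skeletal muscle actin gene Acta1 read 12.51 on the array labelled shNrf3-NC and 4.73 to 6.48 on the other 3, while Acta2 was second highest on shNrf3-NC. Any part of Acta1 RNA in the Acta2 readings was not tested.

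Of 14 measured contractile genes of myofibroblasts and smooth muscle 8 passed the filter on level. With shNrf3 0 were 2-fold or more lower and 0 higher in HFD, and 0 lower and 2 higher in NC (6.9% of all genes). For HFD minus NC 1 was lower (2.67% of all genes) and 0 higher with shNrf3, and 0 lower and 1 higher (7.59%) with shCtrl. The tropomyosin gene Tpm2 differed by -0.63 with shNrf3 and -0.85 with shCtrl for HFD minus NC, and Myocd and Mylk read below the control median on all 4 arrays.

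Periostin (Postn), a matricellular protein that binds integrins and cross-links collagen fibrils, had the widest range of the 9 genes. It read 12.85 on the array labelled shNrf3-HFD against 14.26 on the shCtrl-HFD array, and 13.89 on the shNrf3-NC array against 16.02 on the shCtrl-NC array. It was lower with shNrf3 in each diet and lower in HFD with each construct, so the shCtrl-NC array was highest and the shNrf3-HFD array lowest, 3.17 apart. The construct differences were -1.41 in HFD (2.66-fold lower) and -2.13 in NC (4.39-fold lower). The diet differences were -1.04 with shNrf3 (2.06-fold lower) and -1.77 with shCtrl (3.40-fold lower). The first of these lies at the 2-fold threshold and was -0.998 after loess and -0.94 after centring.

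Dermatopontin (Dpt), a small matrix protein that binds decorin, read 8.74 on the array labelled shNrf3-HFD against 11.10 on the shCtrl-HFD array, and 11.57 on the shNrf3-NC array against 11.04 on the shCtrl-NC array. The 3 other arrays lay within 0.53 of one another and shNrf3-HFD stood apart below them. That gave the largest differences of the 9 genes, -2.36 for the construct in HFD (5.13-fold lower) and -2.82 for HFD minus NC with shNrf3 (7.08-fold lower). The construct difference in NC was 0.53, and the diet difference with shCtrl was 0.07, which was -0.27 after loess. The shNrf3-HFD reading alone lay below the 95th percentile of the negative controls of its array, so its fold sizes have less margin over background.

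Sparc (osteonectin), a collagen-binding matricellular protein, had the same order with smaller differences. It read 16.70 on the array labelled shNrf3-HFD against 17.98 on the shCtrl-HFD array, and 18.17 on the shNrf3-NC array against 17.93 on the shCtrl-NC array. It was 2.43-fold lower with shNrf3 in HFD (-1.28) and 2.78-fold lower in HFD than in NC with shNrf3 (-1.47). The remaining differences were near 0: 0.24 for the construct in NC, which was -0.16 after loess, and 0.05 for the diet with shCtrl, which was -0.39 after loess.

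Fibronectin (Fn1), which links collagen and integrins and is made by many cell types, went the other way. It read 19.72 on the array labelled shNrf3-HFD against 18.92 on the shCtrl-HFD array, and 18.78 on the shNrf3-NC array against 18.97 on the shCtrl-NC array. The shNrf3-HFD array was highest, by 0.80 over shCtrl-HFD (1.74-fold) and by 0.93 over shNrf3-NC (1.91-fold). It lies 0.22 under the highest value of the table, so a larger difference could not have been read in full. After centring, both differences passed 2-fold (1.01 and 1.04).

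**Figure D2:**
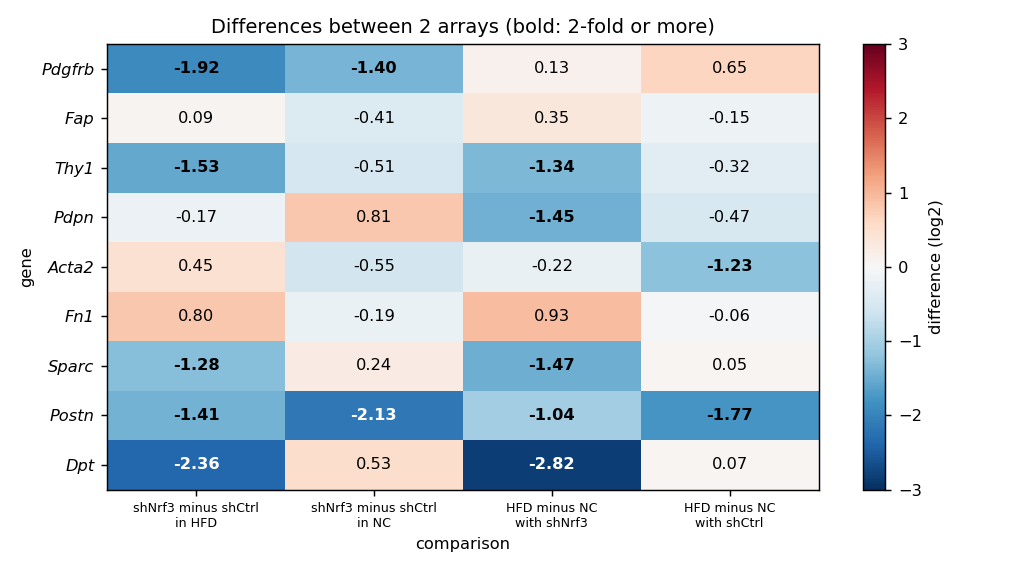
Difference on the log2 scale for each gene (rows) in 4 comparisons of 2 arrays (columns), with bold type from 2-fold upwards. Postn is negative in all 4 columns, Pdgfrb is 2-fold or more lower for the construct in both diets, and Dpt and Sparc are 2-fold or more lower in the 2 columns that hold the shNrf3-HFD array.

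By diet, 3 of the 4 matrix genes and 2 of the 3 surface genes of the list were lower in HFD than in NC in shNrf3 tumors, where Fn1 (0.93) and Fap (0.35) were not. The difference between constructs was not tested. With shNrf3, 5 of the 9 genes (Dpt, Sparc, Pdpn, Thy1 and Postn) read 2-fold or more lower in HFD and 0 higher, where 5.03% of all genes were lower and 1.87% higher. With shCtrl, 2 of the 9 (Postn and Acta2) were lower and 0 higher, where 3.9% of all genes were lower and 14.6% higher. The median difference of the 9 genes was -1.04 with shNrf3 and -0.15 with shCtrl, the second of which was -0.52 after loess and -0.46 after centring. Of all genes past 2-fold, 27.1% were higher with shNrf3 as deposited (29.4% after loess, 41.7% after centring) and 79.0% with shCtrl (57.4% after loess, 46.1% after centring). Postn alone was 2-fold or more lower with both constructs, as 0.539% of all genes were, and none was higher with both, as 0.359% were. That count was 0 after loess and 0 after centring, since the Postn difference with shNrf3 was then -0.998 and -0.94. The comparisons by construct and by diet share arrays: 4 of the 5 genes lower in HFD with shNrf3 are among the 5 lower with shNrf3 in HFD, and both counts rest on the array labelled shNrf3-HFD.

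At a lower threshold of 1.5-fold the same 5 genes were lower with shNrf3 in HFD (20.8% of all genes) and 1, Fn1, was higher (9.12%). In NC the same 2 were lower (13.5%) and 1, Pdpn, was higher (26.8%). For HFD minus NC with shNrf3 the same 5 were lower (14.4%) and Fn1 was higher (8.84%), and with shCtrl the same 2 were lower (10.7%) and Pdgfrb was higher (31.2%). The construct difference in HFD less that in NC was 2-fold or more in size for 4 of the 9 genes (Dpt, Sparc, Thy1 and Acta2), against 28.3% of all genes.

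**Figure D3:**
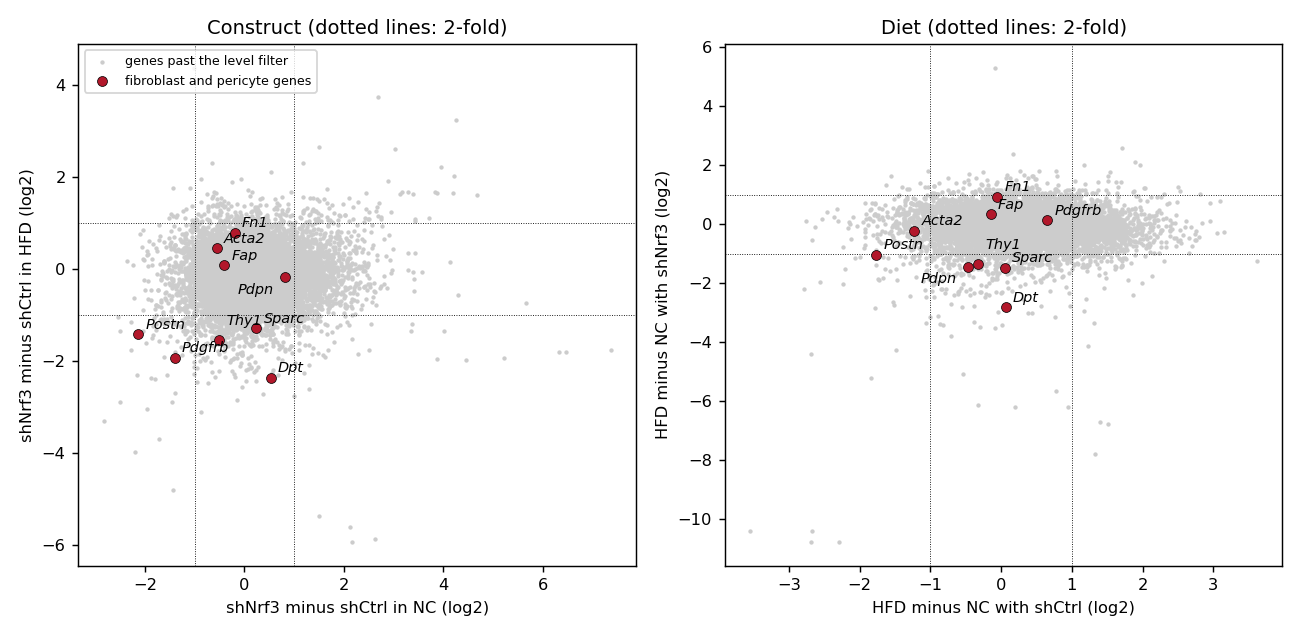
Left, shNrf3 minus shCtrl in NC (x axis) against HFD (y axis), and right, HFD minus NC with shCtrl (x axis) against shNrf3 (y axis), all on the log2 scale, with the 9 genes in red over the 10021 genes past the filter in grey. Postn lies below and left of the 2-fold lines in both panels and Pdgfrb in the left panel, while Dpt is far below 0 on both y axes and near 0 or above it on the x axes.

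limma was fitted over all 10021 genes with additive terms for construct and for diet, which leaves 1 residual degree of freedom, their interaction. It called 0 genes at an adjusted p of 0.05 for the construct and 0 for diet (0.0% each). At an unadjusted p under 0.05 limma had 447 genes for the construct (4.46%) and 292 for diet (2.91%). For the construct 2 of the 9 genes were among the 447: Postn, at -1.77 ± 0.40 (SE, 4 arrays) with an unadjusted p of 0.00361 in the limma fit, and Pdgfrb, at -1.66 ± 0.39 with 0.00433. Their limma adjusted p was 0.936 each. For diet 1 was among the 292, Postn, at -1.40 ± 0.40 with an unadjusted p of 0.0112 and an adjusted p of 0.999 from limma. After loess and after centring, 3 of the 9 genes had an unadjusted p under 0.05 for the construct, with Thy1 added. Of all genes 6.42% after loess and 6.87% after centring did. For diet 4 of the 9 did, with Dpt, Pdpn and Thy1 added, against 4.36% and 4.81% of all genes. Of the 9 genes, 0 passed after adjustment. Thy1 had an averaged construct difference of -1.02 ± 0.43 and Dpt a diet difference of -1.38 ± 0.68, whose limma adjusted p were 0.961 and 0.999. Variation among tumors of the same group does not enter this fit.

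Other fibroblast genes were measured beside the list. Of 19 fibroblast identity genes (collagens, lumican, decorin, matrix enzymes and transcription factors such as Prrx1), of which 16 passed the filter, 8 were 2-fold or more lower with shNrf3 in HFD (3.69% of all genes) and 0 higher, and 2 were lower (2.48%) and 0 higher in NC, with medians of -0.62 and -0.04. For HFD minus NC 9 were lower (2.67%) and 0 higher with shNrf3, and 3 lower (2.13%) and 1 higher (7.59%) with shCtrl. The medians were -0.98 and -0.30. The matrix proteoglycan gene Lum was lower with shNrf3 in both diets (-3.03 in HFD and -1.96 in NC), and so was Lrrc15 (-1.64 and -1.14), a membrane protein of myofibroblast-type tumor fibroblasts. For diet Lum (-2.84 with shNrf3 and -1.78 with shCtrl), the collagen cross-linking enzyme gene Lox (-1.88 and -1.73) and Dcn (-3.35 and -1.06) were lower in HFD with both constructs. Lrrc15 exceeded the 95th percentile of the negative controls on 0 arrays. Lum lay below it on the shNrf3-HFD array (8.73 against 9.13), so its differences with that array have less margin over background.

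Of 14 measured genes of inflammatory fibroblasts, of which 13 passed the filter, 8 were 2-fold or more lower in HFD than in NC with shNrf3 (2.67% of all genes) and 5 with shCtrl (2.13%), against 0 higher in each, with medians of -1.26 and -0.69. The members lower with both constructs were the hyaluronan synthase gene Has1 (-1.51 or lower with shNrf3 and -1.57 with shCtrl), Il6 (-1.53 and -2.20) and the chemokine genes Cxcl14 (-1.31 and -1.29) and Cxcl12 (-2.49 and -1.06). For the construct 5 were lower in HFD (3.69%) and 3 in NC (2.48%), against 0 higher, with medians of -0.80 and -0.07, and Has1 was the 1 member lower in both (-1.15 or lower in HFD and -1.21 in NC). Has1 read 5.30 on the shNrf3-HFD array, just below its control median of 5.39, which makes both of its differences with that array bounds. It exceeded the 95th percentile of the negative controls on 0 arrays, and Cxcl12 lay below it on the shNrf3-HFD array (7.98 against 9.13).

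Among 16 matricellular genes, the class of Postn and Sparc, 14 passed the filter. With shNrf3 3 were 2-fold or more lower in HFD (3.69% of all genes) and 2 in NC (2.48%), against 0 higher, with medians of -0.57 and -0.06. The Sparc relative Sparcl1 was lower in both diets (-1.17 in HFD and -1.21 in NC), in NC thus unlike Sparc. Its shNrf3-HFD reading (8.89) lay below the 95th percentile of the negative controls of that array (9.13). By diet 5 were lower with shNrf3 (2.67%) and 1 with shCtrl (2.13%), against 0 higher with shNrf3 and 1 with shCtrl (7.59%). The medians were -0.81 and -0.24. Tenascin C (Tnc) differed by -1.54 with shNrf3 and -0.50 with shCtrl, and Thbs2 by -0.67 and -1.23.

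Most pericyte genes read near background. Of 12 pericyte genes 8, 7, 6 and 5 read below the control median on the arrays labelled shNrf3-HFD, shCtrl-HFD, shNrf3-NC and shCtrl-NC, and at most 1 exceeded the 95th percentile of the negative controls on any array. Notch3 and Cspg4, defining pericyte genes named after their values were seen, read below the control median on 4 and 3 arrays. Of the 12, 5 passed the filter. With shNrf3 0 were 2-fold or more lower and 1 higher (1.24% of all genes) in HFD, and 4 lower (2.48%) and 0 higher in NC. Mcam, an adhesion molecule of pericytes and endothelium, differed by -0.65 in HFD and -1.94 in NC. By diet 1 was lower (2.67%) and 0 higher with shNrf3, and 4 lower (2.13%) and 0 higher with shCtrl. Vitronectin (Vtn) was the 1 member lower in HFD with both constructs, by bounds of -1.05 or lower with shNrf3 and -1.84 or lower with shCtrl, since its readings on the 2 arrays of HFD tumors lie under the control median.

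**Figure D4:**
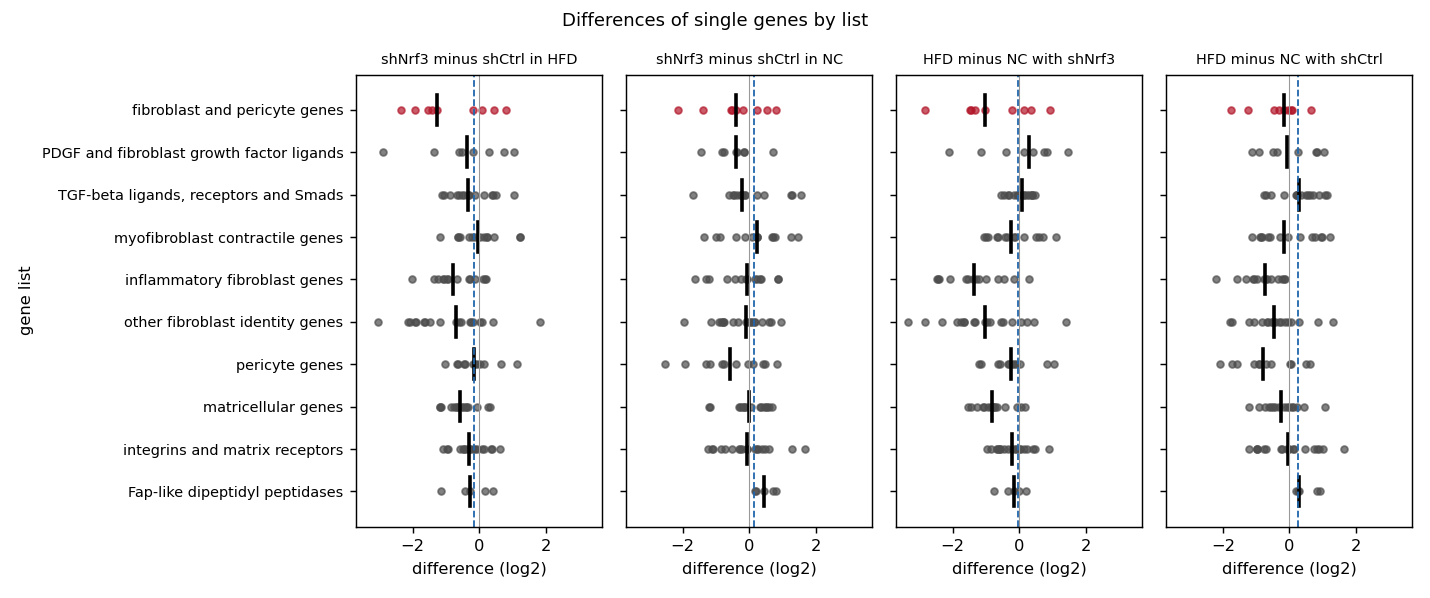
Difference on the log2 scale (x axis) of every measured gene of each list (rows) in the 4 comparisons (panels), 1 point per gene, with readings as deposited. The black bar is the median of the list, the dashed blue line the median of all genes past the filter and the thin grey line 0. In the first and the third panel the fibroblast and pericyte genes have medians of -1.28 and -1.04, and the inflammatory fibroblast and fibroblast identity lists also lie below the dashed line there.

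Markers of other cell types moved with the same arrays. The log2 of the summed level of 15 skeletal muscle markers was 9.80, 10.86, 14.04 and 10.77 on the arrays labelled shNrf3-HFD, shCtrl-HFD, shNrf3-NC and shCtrl-NC, and 10, 7, 0 and 8 of them read below the control median. For 11 adipocyte markers it was 14.47, 15.76, 16.07 and 14.44, with 4, 2, 2 and 2 below that median. The array labelled shNrf3-NC was thus highest in muscle and fat markers, and the same array had the highest readings of Dpt, Pdpn and Sparc, which host connective tissue also expresses. The part of muscle or fat in these readings was not tested. The 2 comparisons that do not use that array are the construct in HFD and diet with shCtrl. In the HFD construct comparison 5 of the 9 genes were lower. There 6 of 11 adipocyte markers and 4 of 15 skeletal muscle markers were 2-fold or more lower on the shNrf3-HFD array (3.69% of all genes) and 0 higher. Their medians were -1.09 and 0.03. In the diet comparison with shCtrl 5 of the 11 and 2 of the 15 were 2-fold or more higher in HFD (7.59% of all genes) and 0 lower, with medians of 0.94 and -0.03. The part of fat and muscle in both comparisons was not tested.

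Endothelial markers had a lower sum on both shNrf3 arrays, as Pdgfrb had lower readings. The log2 of their summed level was 10.64 on the shNrf3-HFD array against 11.70 on the shCtrl-HFD array, and 10.86 on the shNrf3-NC array against 12.17 on the shCtrl-NC array. Of 11 measured, of which 8 passed the filter, 3 were 2-fold or more lower in HFD (3.69% of all genes) and 5 in NC (2.48%), against 0 higher, with medians of -0.35 and -0.65. In HFD and in NC the differences were -1.61 and -1.97 for Cdh5, which encodes the junction protein VE-cadherin. They were -1.57 and -1.56 for Kdr and -1.87 and -1.25 for Flt1, both receptors of VEGF. Pecam1 differed by -0.24 and -0.65, and Esam by 0.39 and -1.26. In the order used above, 2, 2, 3 and 2 of the 11 read below the control median. Only 0, 2, 0 and 3 exceeded the 95th percentile of the negative controls. Whether vessel content has a part in the Pdgfrb and Pdgfb differences was not tested.

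T cell markers bear on Thy1. Their summed level, over 7 genes, was 8.04, 8.63, 9.80 and 8.94 in the same order, and 5, 3, 1 and 1 of them read below the control median. It was lowest on the shNrf3-HFD array, as Thy1 was, but highest on the shNrf3-NC array, where Thy1 was not. With shNrf3 in NC 3 of the 7, Cd3e, Cd3g and Cd8a, were 2-fold or more higher (6.9% of all genes) and 0 lower. Cd3g read 5.02, 5.21, 7.84 and 5.76. Cd4 (-0.34) and Cd5 (-0.52) were lower on the shNrf3-NC array than on the shCtrl-NC array, as Thy1 was. Of the 7, 0 exceeded the 95th percentile of the negative controls on any array. Lymphatic markers bear on Pdpn: Prox1, their defining factor, read below the control median on all 4 arrays, while Lyve1, which some macrophages express too, read 9.19 on the shNrf3-NC array and 5.89 to 6.73 on the other 3. Macrophages can also make Fn1. The summed level of 11 macrophage markers was 16.67, 15.91, 17.11 and 15.69, higher with shNrf3 in both diets. With shNrf3 2 of the 11 were 2-fold or more higher in HFD (1.24% of all genes) and 9 in NC (6.9%), against 0 lower. In HFD C1qb (-0.65) and Cd14 (-0.31) were lower by less than 2-fold. Fn1 differed by 0.80 in HFD and -0.19 in NC. Of 8 smooth muscle markers 5, 3, 4 and 6 read below the control median, among them Des on 3 arrays. Smtn, at 9.37 to 10.04, was the 1 marker of the 8 above the 95th percentile of the negative controls, on all 4 arrays. The part of these cells in the readings of Thy1, Pdpn, Fn1 and Acta2 was not tested.

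**Figure D5:**
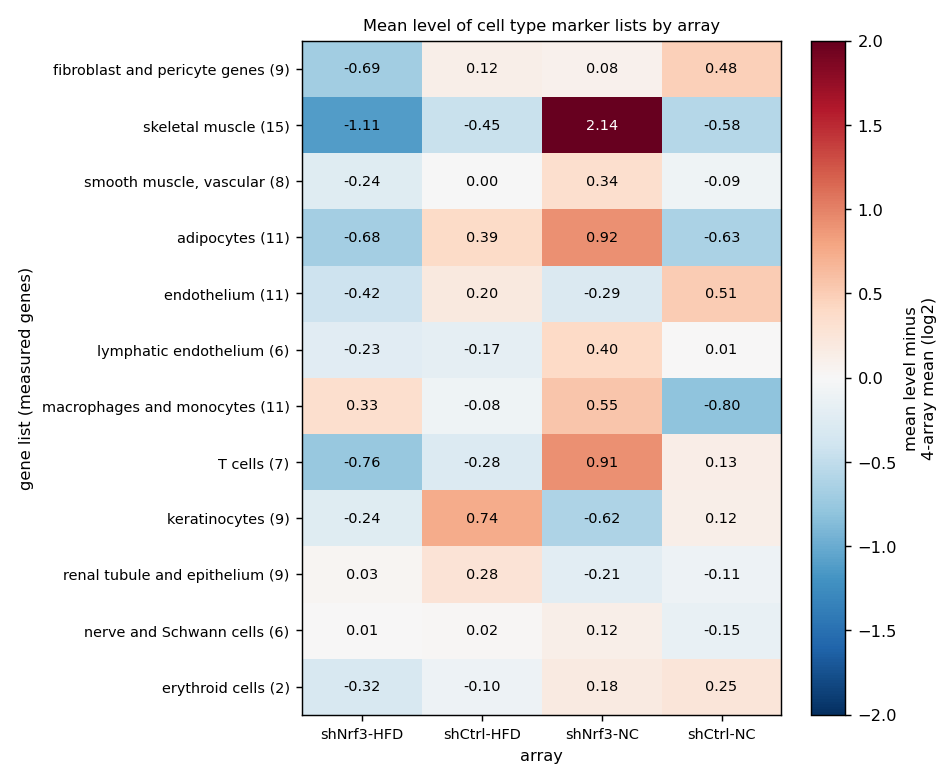
Mean level of each marker list (rows, with the number of measured genes) on each array (columns), less the mean of that list over the 4 arrays, on the log2 scale. The 9 fibroblast and pericyte genes run from -0.69 on the array labelled shNrf3-HFD to 0.48 on that labelled shCtrl-NC, and the skeletal muscle list stands at 2.14 on that labelled shNrf3-NC.

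The genes whose pattern over the 4 arrays was nearest to that of Pdgfrb or Postn were found among 9730 other genes past the filter, as the root-mean-square difference between log2 profiles centred on their own means. Nearest to Pdgfrb were Myo7a (0.18), an unconventional myosin gene, Eml5 (0.18) and Tnn (0.22), a tenascin gene of the matrix. Eml5 and Tnn read below the 95th percentile of the negative controls on every array. On the shNrf3-HFD array Tnn (5.02) read below the control median (5.39), so these profiles are near background. Nearest to Postn were the gelatinase gene Mmp9 (0.26), Il6 (0.33) and the collagen VI chain gene Col6a3 (0.34). Over 4 arrays such likeness is a description of 3 differences, and many genes can come close by it.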

How the data were processed

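The 10 genes and all gene lists were chosen with earlier results of these data known. The submitters' processing notes name Affymetrix Expression Console and RMA for the deposited table, whose values, made by the authors, are log2 levels. No version and no genome build is stated in what was used here. Each array had 100 ng of total RNA, per the labels' protocols. The table holds 28846 rows, 22206 of transcripts and 6640 of controls, of which 5222 are negative controls. The platform annotation names 19572 probe sets with 1 symbol each, 0 with several, and leaves 2634 transcript rows unnamed here; a RefSeq table (mouse assembly GRCm38.p6), used for names only, held the Entrez ID of all 19572. For the 55 genes with several probe sets the one with the highest mean was taken. The filter kept the 10021 genes whose mean reached 5.73, which is the median of all rows.

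Differences are between 2 arrays and were counted from 2-fold. The additive model used lmFit and eBayes of limma 3.58.1 (R 4.3.3), with Benjamini-Hochberg adjustment over all filtered genes, and was tested on simulated data. Alternatives were cyclic loess, a floor at the negative control median, 1.5-fold and the mean of probe sets. Further ones were centring each array on the median of its genes past the filter, other filters (none, the 75th percentile) and an intensity trend. Arrays give no depth; their number limits the precision. Other genes were named where both comparisons of a kind passed 2-fold in 1 direction (at most 4 per list) or, where none did, as the 2 with the largest averaged difference; not all of these are printed. No sequence or coordinate is given, since the sequences were not used here.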

Additional observations from a re-analysis of the deposited data

Results flagged for a closer look

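In 3 of the 9 genes 2 differences of the same kind had opposite signs and lay 2-fold or more apart. Whatever the signs, 28.3% of all genes past the filter reached that size for the construct by diet difference. The share that also had opposite signs was not counted, so the 3 genes have no matching share. With 1 array per group none of the flagged differences was tested. Dpt differed for shNrf3 minus shCtrl by -2.36 in HFD and 0.53 in NC, which are -2.89 apart, and by the same amount for HFD minus NC with shNrf3 (-2.82) and with shCtrl (0.07). Sparc differed by -1.28 in HFD and 0.24 in NC, -1.53 apart, and by diet by -1.47 with shNrf3 and 0.05 with shCtrl. Acta2 differed by 0.45 in HFD and -0.55 in NC, 1.01 apart. The signs of the Sparc differences in NC and with shCtrl and of the Dpt difference with shCtrl turned after loess (-0.16, -0.39 and -0.27). No group has the 4 arrays that a search for outlying samples needs.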

How the results depend on the processing

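With 1 array per group no array could be left out of a single comparison, and in the additive fit leaving 1 out returns the difference of the remaining pair. No paired analysis was possible because each group has 1 array and the labels give no replicate numbers. Counts of the 9 genes 2-fold or more lower stayed within 1.5 times under all alternatives run, with no called difference of a single gene changing sign. Counts of genes higher were 0 as reported, but 1 after centring in shNrf3 minus shCtrl in HFD and in HFD minus NC with shNrf3 (Fn1 in each), and 1 in each comparison at 1.5-fold. Median differences moved by 0.1 or more as follows. For shNrf3 minus shCtrl in NC the median was -0.63 after loess, -0.61 after centring and -0.55 when counted from the median of all genes, an alternative added after seeing the data. In HFD it was -1.07 after centring and -1.14 counted that way. For HFD minus NC it was -0.94 after centring with shNrf3, and with shCtrl -0.52 after loess, -0.46 after centring and -0.41 counted from the median of all genes. In the limma fit 1 gene was called for the construct after loess, and 27 for the construct and 11 for diet after centring. None of the 9 genes was among them: the smallest limma adjusted p among them ran from 0.142 to 0.936 for the construct and from 0.357 to 1 for diet over the 6 fits. The cause was not tested. Counts for the other gene lists were made with readings floored at the control median, a choice made after seeing the data.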

Other observations

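Other lists on matrix and fibroblast signalling were counted in the same way, with readings below the control median set to it. Over all 19505 named genes, 3.69% were lower and 1.24% higher with shNrf3 in HFD, and 2.48% lower and 6.9% higher in NC. For HFD minus NC 2.67% were lower and 0.984% higher with shNrf3, and 2.13% lower and 7.59% higher with shCtrl. Of 16 TGF-beta ligand, receptor and Smad genes 2 were 2-fold or more lower and 1 higher with shNrf3 in HFD, and 1 lower and 3 higher in NC, with medians of -0.34 and -0.21. All 16 passed the filter. Of the 10021 genes past it, not floored, 7.13% were lower in HFD and 13.3% higher in NC. By diet 14.6% of them were higher with shCtrl. The co-receptor gene Tgfbr3 was the 1 member higher with shNrf3 in both diets (1.04 and 1.54). Its shCtrl-NC reading (8.63) lay below the 95th percentile of the negative controls of that array (9.35). By diet 0 were lower with either construct, and 0 were higher with shNrf3 and 2 with shCtrl.

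Of 19 integrin and matrix receptor genes 16 passed the filter. With shNrf3 1 was 2-fold or more lower (3.69% of all genes) and 0 higher in HFD. In NC 3 were lower (2.48%) and 2 higher (6.9%). Itgb5 and Itgb3, whose products pair with integrin alpha v and bind periostin, differed by -0.96 and -0.49 in HFD and by -0.85 and -1.09 in NC. Of the 5 genes of peptidases related to Fap, 1 was 2-fold or more lower with shNrf3 in HFD (3.69% of all genes). It was Dpp4 (-1.13 or lower in HFD and 0.46 in NC), and 0 were past 2-fold in the other 3 comparisons.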
